A study of Mus musculus with 8 samples.

Results

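Psmb11, Prss16 and Ctsl are the 3 genes through which cortical thymic epithelial cells (cTEC) are best known to make the peptides that they show to developing T cells. They were taken by symbol from the 27514 genes that the 8 single-cell libraries had in common, and all 3 were found, each as 1 row. The libraries came from wild-type (WT) mice of the strain labelled C57 B6 (CD45.2), and none carried a transgene or a treatment. Total thymic epithelial cells (TEC) were sorted at E13.5. Cells sorted as cTEC (EpCAM+ CD45- Ly51+ UEA-1-) came from E15.5, E17.5 and newborn (NB) mice of 0 to 2 days, with 1 library each, and from adult mice of 4 to 6 weeks, with 2. Medullary TEC (mTEC; Ly51- UEA-1+) came from the adult mice, also with 2 libraries. The study captured E13.5, E15.5, NB and replicate 1 of both adult groups as its first data set, and E17.5 and replicate 2 of both adult groups as its second. Newborn and adult thymi were digested and enriched on a density gradient and embryonic ones were digested with trypsin, so preparation cannot be told apart from the difference between embryonic and postnatal ages.

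Every cTEC presents peptides on both classes of MHC molecule, and these select the T cells that mature. Psmb11 encodes β5t, a catalytic subunit of the proteasome that replaces Psmb5 and its immune counterpart Psmb8 in the thymoproteasome of cTEC, where peptides for class I are cut in the cytosol. Ctsl encodes cathepsin L, a lysosomal cysteine protease that degrades proteins and the invariant chain Cd74 on the class II route. Prss16 encodes the thymus-specific serine protease (TSSP), a peptidase of the S28 family that also acts on the class II route.

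In the mouse annotation of build GRCm38 (GENCODE vM21), Psmb11 (ENSMUSG00000072423) lies on chromosome 14 from 54621433 to 54629556, and its main transcript has 1 exon. Prss16 (ENSMUSG00000006179) lies on the reverse strand of chromosome 13 from 22002173 to 22009742 and has 12 exons. Ctsl (ENSMUSG00000021477) lies on the reverse strand of the same chromosome from 64359337 to 64370890, with 8 exons in its main transcript. No annotated gene overlaps Psmb11 or Prss16, and the antisense gene Gm47123 and the pseudogene Gm49230 that overlap Ctsl cover none of the exons of its main transcript.

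The transcription factor Foxn1, which drives the program of thymic epithelium and is known to bind a GACGC core, was the reason to look at the letters upstream of these genes. In the 250 bases before the RefSeq start of Psmb11 (build GRCm38.p6) a search of both strands for GACGC found 2 matches, both on the reverse strand, so that they read GCGTC on the strand of the gene. They are shown here with the match in capitals. Their first bases lie 239 and 62 bases before the start:
Psmb11 site 1, chr14:54625061-54625085, forward strand: ctgacaggtgGCGTCttcagagtgt
Psmb11 site 2, chr14:54625238-54625262, forward strand: cttctccacaGCGTCctcctcctcc
Both sites also lie inside an exon of the longer transcript Psmb11-202. The window of Ctsl held no match, and Prss16 had no entry. Of 32851 windows of this length, 22.6% held at least 1 match and 5.86% at least 2, and the matches are given as letters only, not as sites of binding.

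After the limits of the study on cells (at most 5% mitochondrial UMIs and 5000 detected genes), the libraries held from 507 to 8350 cells, a median of 3973 to 11354 unique molecular identifiers (UMIs) per cell and from 2238190 to 89998087 UMIs in all. Adult cTEC replicate 1 was the shallowest. Clusters of each data set that met the marker rule for another cell class were set aside, which left from 88.3% (E13.5) to 100% of the cells of a library. The rest are called epithelial-like by that rule only. They still held 1385 E17.5 cells of a cluster led by haemoglobin genes. When adult libraries were clustered alone, a cluster of 114 of these cells was led by complement C1q genes in cTEC replicate 1 and one of 21 by T cell genes in cTEC replicate 2. In the epithelial-like cells all 5 epithelial markers (Epcam among them) and all 10 cTEC markers had UMIs in every adult and NB library. In these libraries fewer cells with a transcript and less of it per cell cannot be told apart in a sum, and a share of cells with a UMI falls with either. Nothing in the labels says whether the replicates came from separate animals, so p-values measure the spread between these samples, which may be technical. Values below are CPM, the UMIs of a gene scaled to equal library totals, summed over the epithelial-like cells of a library, with exact Poisson intervals that cover counting error only. Between 0 and 84 cell barcodes were shared by a pair of libraries of the same data set.

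Psmb11 stood at 251 CPM (95% interval 243 to 259) in E13.5 TEC, at 1366 (1352 to 1380) in E15.5 cTEC, at 1474 (1466 to 1482) in E17.5 cTEC and at 1340 (1325 to 1355) in NB cTEC. It stood at 660 (626 to 695) and 1395 (1358 to 1431) in the adult cTEC libraries, and at 3.85 (2.97 to 4.92) and 8.57 (7.89 to 9.30) in the adult mTEC libraries. E13.5, a gate of total TEC in which the mTEC I markers stood at 939 CPM against 231 in E15.5 cTEC, was thus the lowest library other than mTEC. The 3 libraries from E15.5 to NB lay within 1.10-fold of each other, and the adult cTEC libraries, at 1027 ± 520 CPM (SD, n = 2), differed by 2.11-fold. The spread between the adult libraries was larger than any difference among E15.5, E17.5 and NB, and adult replicate 2 lay between them. Without the C1q-led and T cell gene-led clusters, an alternative chosen after seeing the data, Psmb11 stood at 791 and 1349 CPM in the adult cTEC libraries.

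Prss16 followed the same outline at other values. It stood at 526 CPM in E13.5 TEC, 2342 in E15.5, 3648 in E17.5 and 3704 in NB cTEC, and at 1627 and 3053 in the adult cTEC libraries, a mean of 2340 ± 1008 (SD, n = 2). In the adult mTEC libraries it stood at 34.4 (31.6 to 37.3) and 36.3 (34.9 to 37.8) CPM. E17.5 and NB were the 2 highest libraries and differed by less than the spread of the adult cTEC libraries, while E13.5 lay below every cTEC library and above both mTEC libraries.

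Ctsl was among the most abundant transcripts of these cells from E17.5 on: by UMIs it was the second gene of all in E17.5 and in NB cTEC, and the third and the fourth in the adult cTEC libraries, against place 25 in E15.5 cTEC and place 175 in E13.5 TEC. It stood at 785 CPM in E13.5 TEC, 4385 in E15.5, 13270 in E17.5 and 13773 in NB cTEC, and at 7444 and 9714 in the adult cTEC libraries, a mean of 8579 ± 1605 (SD, n = 2). Unlike the other 2 genes it kept a sizeable level in adult mTEC, 883 (869 to 898) and 504 (499 to 510) CPM. The value of E13.5 TEC lay between those of the adult mTEC libraries for Ctsl, which was not so for Psmb11 or Prss16.

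**Figure D1:**
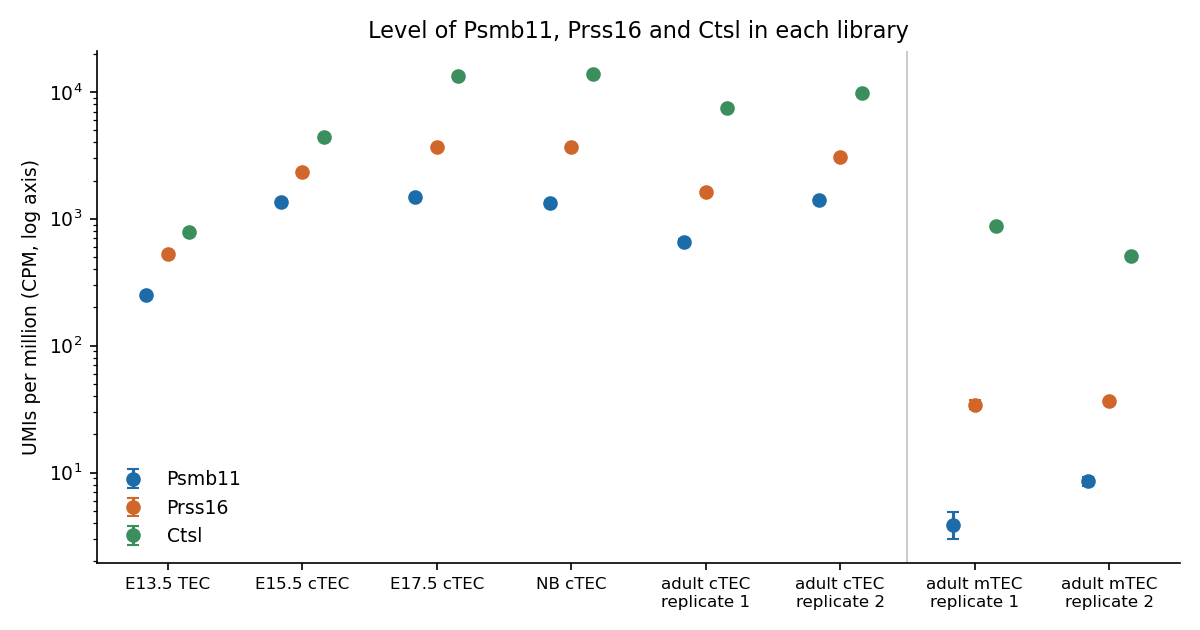
Level of each gene (CPM, log axis) in each of the 8 libraries, with bars for the 95% Poisson interval of the count, which is often smaller than the point. The 3 genes lie lower in E13.5 TEC than in any cTEC library, from 251 (Psmb11) to 785 CPM (Ctsl), and the mTEC libraries to the right of the line lie far below the cTEC libraries, least so for Ctsl.

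The steps between ages were compared within a data set and rest on 1 library on at least 1 side, so they carry no test. From E13.5 TEC to E15.5 cTEC the CPM ratio was 5.44 for Psmb11, 4.46 for Prss16 and 5.59 for Ctsl. From E15.5 to NB the genes parted, with ratios of 0.981 for Psmb11, 1.58 for Prss16 and 3.14 for Ctsl. From NB to adult cTEC replicate 1 the ratios were 0.492, 0.439 and 0.541 in the same order, and from E17.5 to adult cTEC replicate 2 they were 0.946, 0.837 and 0.732. The step into the adult thus pointed down for all 3 genes in both data sets, but by amounts that differed between the data sets as much as the adult libraries themselves did.

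The UMIs of Ctsl per UMI of Psmb11 gave the same parting within each library. This ratio is compared between libraries only, since it depends on how each transcript is captured. It was 3.13 (3.01 to 3.25) in E13.5 TEC and 3.21 (3.17 to 3.25) in E15.5 cTEC, and then 9.0 (8.95 to 9.05) in E17.5, 10.3 (10.2 to 10.4) in NB, and 11.3 (10.7 to 11.9) and 6.97 (6.77 to 7.16) in adult cTEC. Among E13.5 TEC and cTEC, Psmb11 per Prss16 ran over a narrower range, from 0.362 (0.357 to 0.366) in NB to 0.583 (0.576 to 0.590) in E15.5, with 0.405 and 0.457 in the adult ones. In mTEC, where Psmb11 was close to absent, Ctsl per Psmb11 was 229 (180 to 298) and 58.9 (54.2 to 64.01), and Psmb11 per Prss16 was 0.112 (0.0852 to 0.145) and 0.236 (0.215 to 0.259).

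Whether the genes changed steadily with age was asked with 1 slope per gene on stage rank (1 for E13.5 to 5 for adult) over the 6 libraries of E13.5 TEC and cTEC, with data set as a term, in edgeR's quasi-likelihood test with Benjamini-Hochberg adjustment over all genes. Of 14285 genes tested, 8.22% were called, 5.15% rising and 3.07% falling, and 0 of the 3 genes were among them. The slopes per stage were 0.12 for Psmb11 on the log2 scale (SE 0.26, adjusted p 0.797), 0.25 for Prss16 (SE 0.26, adjusted p 0.573) and 0.59 for Ctsl (SE 0.32, adjusted p 0.284). The lowest unadjusted p was 0.112, for Ctsl, and DESeq2 also called 0 of the 3. A slope cannot describe a step followed by a plateau: without E13.5 TEC, which was sorted by another gate, the slopes were −0.24 for Psmb11, −0.12 for Prss16 and 0.12 for Ctsl, so the first 2 turned negative.

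Between the adult lineages all 3 genes were higher in cTEC. Of 15626 genes tested over the 4 adult libraries, 31.7% were called, 10.9% higher and 20.8% lower in cTEC, with a median difference of −0.14 over all genes. The difference was 7.31 for Psmb11 on the log2 scale (SE 0.52, edgeR adjusted p 1.28e-13), 5.91 for Prss16 (SE 0.52, adjusted p 1.08e-11) and 3.60 for Ctsl (SE 0.52, adjusted p 4.85e-07). Within data sets the CPM ratio of cTEC to mTEC was 171 and 163 for Psmb11, 47.4 and 84.1 for Prss16, and 8.43 and 19.3 for Ctsl. Without adult mTEC replicate 2 the difference for Ctsl was 3.23 and it was not called. That fit had 1 mTEC library and also no data set term, so the loss cannot be put down to that library alone. The differences among the 3 estimates were not tested.

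How many cells of a library had each transcript was counted after every cell was thinned to 2000 UMIs, since libraries differed in depth; cells below that depth were left out. A UMI of Psmb11 was found in 33.3% of cells in E13.5 TEC, 84.5% in E15.5, 88.7% in E17.5 and 82.4% in NB cTEC. In the adult cTEC libraries it was found in 37.5% (of 427 cells) and 55.0% (of 522). Adult cTEC replicate 2 thus had the CPM of the E15.5 to NB libraries in a smaller share of its cells, and no order of levels is read from these shares. In adult mTEC the shares were 0.315% and 1.15%.

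A gate for total TEC at E13.5 also caught 124 parathyroid-like and 107 thyroid-like cells, which serve as a comparison within that library. Whether their UMIs of the 3 genes were free RNA or their own was not tested. At 2000 UMIs, 3.23% and 1.87% of them had Psmb11, 7.26% and 2.80% had Prss16, and 30.6% and 29.0% had Ctsl. Their median depths were 4256 and 5553 UMIs, against 7283 in the epithelial-like cells. The shares of the E13.5 epithelial-like cells stood above those of both for each gene, with 33.3% for Psmb11, 53.5% for Prss16 and 65.5% for Ctsl. The Psmb11 shares of adult mTEC were smaller than these and the Prss16 shares lay between them, but these cells come from another library, and the level of free RNA in the mTEC libraries was not measured.

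For Prss16 the shares were 91.2% in E15.5, 98.2% in E17.5 and 96.8% in NB cTEC, 52.2% and 66.5% in adult cTEC, and 5.99% and 5.64% in adult mTEC. For Ctsl they were 96.6%, 99.9% and 99.9% in the 3 fetal and newborn cTEC libraries, 96.5% and 95.0% in adult cTEC, and 52.7% and 41.7% in adult mTEC. Ctsl was found in nearly all cells of every cTEC library, so its share could not show a difference between them. By a higher limit, 96.1% of E17.5 and 98.0% of NB cells held at least 5 UMIs of Ctsl, against 69.8% and 72.6% of adult cTEC and 71.6% of E15.5 cells. Without thinning the Psmb11 shares were 61.0% in E13.5 TEC, from 94.4% to 99.2% in the 3 libraries from E15.5 to NB, 44.1% and 67.1% in adult cTEC, and 1.51% and 4.51% in adult mTEC.

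All 3 transcripts were found together in 20.1% (95% exact binomial interval 18.2% to 22.1%) of E13.5 cells, 76.8% (75.3% to 78.1%) of E15.5, 87.3% (86.5% to 88.0%) of E17.5 and 80.8% (79.5% to 82.1%) of NB cells. In adult cTEC they were found together in 31.1% (26.8% to 35.8%) and 50% (45.6% to 54.4%). The younger cTEC libraries did not overlap with the adult ones here, although E17.5 and adult cTEC replicate 2 shared a data set. In adult mTEC it was 0 of 1585 cells, for which the exact interval reaches 0.232% at this depth, and 4 of 5492. Without thinning it was 7 of 1585 and 87 of 5615.

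**Figure D2:**
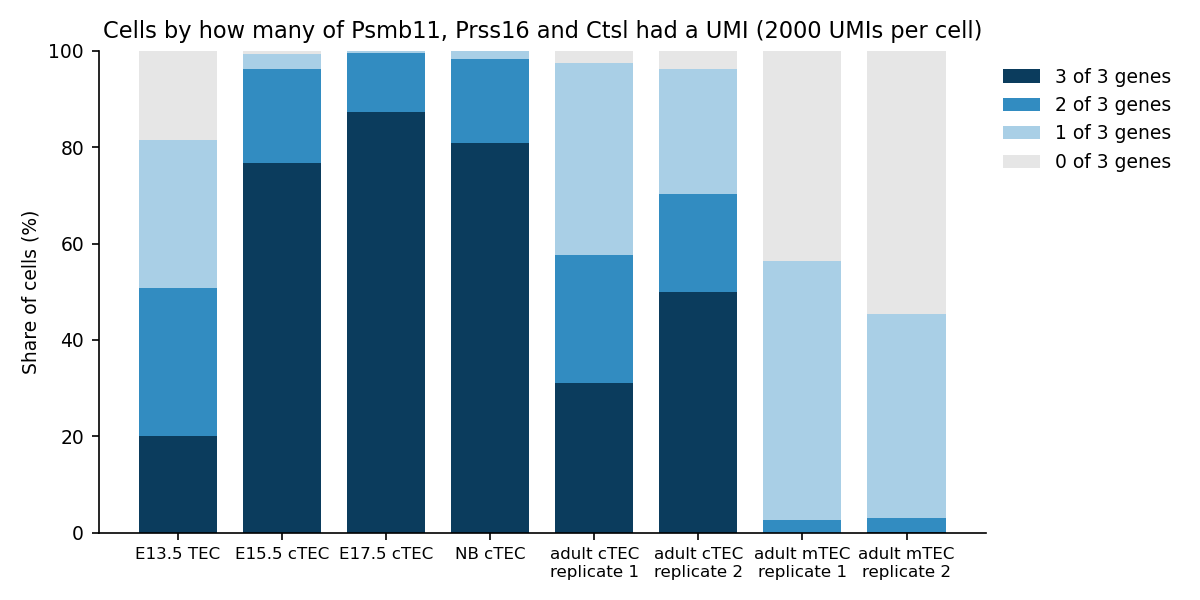
Share of epithelial-like cells (%) in each library with a UMI of 3, 2, 1 or 0 of the genes, after thinning to 2000 UMIs per cell. Cells with all 3 make up 76.8% to 87.3% of the E15.5, E17.5 and NB libraries, 31.1% and 50% of adult cTEC and almost none of adult mTEC, where the cells with 1 gene mostly had Ctsl.

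The cells that lacked a gene were not the same kind at each age. At E13.5 no class held most of the cells. Prss16 with Ctsl but without Psmb11 made up 20.1% of cells, Ctsl alone 18.3%, Prss16 alone 9.79%, and no member of the trio 18.5%. The classes with Psmb11 but not all 3 genes were smaller, from 2.75% (Psmb11 alone) to 6.99% (Psmb11 with Ctsl). From E15.5 to NB the cells short of the full set were mostly those with Prss16 and Ctsl but no Psmb11 (12.02%, 10.9% and 16.0%). In adult cTEC the largest such class was Ctsl alone, with 38.9% and 24.9% of cells, against 1.66% in E15.5, 0.412% in E17.5 and 1.66% in NB cTEC. Ctsl alone was also the usual state of positive mTEC, with 50.1% and 38.7% of cells.

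Psmb11 and Prss16 divided adult cTEC along the same line. Among adult cTEC with a Psmb11 UMI, 83.1% and 91.3% also had Prss16, against 33.7% and 36.2% of those without. In NB cTEC the corresponding shares were 98.2% and 90.6%, and at E13.5 they were 70.8% and 44.8%. Across thinned cells the Spearman correlation of Psmb11 and Prss16 was 0.64 and 0.72 in the adult cTEC libraries (427 and 522 cells), from 0.25 to 0.36 in the 4 younger libraries, and 0.04 and 0.03 in adult mTEC. In adult cTEC, Prss16 with Ctsl stood at 0.67 and 0.77, and Psmb11 with Ctsl at 0.55 and 0.70. The division was thus not particular to Psmb11 and Prss16. These cells share a library and an equal depth, and the correlations are given as a description.

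The number of UMIs per thinned cell showed the same split. The variance of Psmb11 counts was 1.65 to 1.89 times their mean from E13.5 to NB, and 3.44 and 4.18 times in adult cTEC. For Prss16 it was 2.07 to 3.03 times before the adult, and 7.86 and 8.42 times in adult cTEC. Cells of adult cTEC replicate 2 that had the transcript held 4.13 UMIs of Psmb11 on average, against 3.28, 3.31 and 3.12 in E15.5, E17.5 and NB cTEC, while 235 of its 522 cells had none. In adult cTEC replicate 1 such cells held 2.85, below the 3 younger libraries, and 267 of its 427 cells had none, so the adult libraries lay on either side of the younger ones.

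To see which adult cells these were, each adult library and the E13.5 library was clustered without the 3 genes. A cluster was named only by markers of a fixed list, and since genes that vary with the members were used for clustering, the values are given as a description. In adult cTEC replicate 1, the cTEC-like cluster (62 cells, led by Cd83 and Ccl25) held 1837 CPM of Psmb11, 4488 of Prss16 and 13455 of Ctsl. A cluster of 79 cells led by Tbata, a gene of cortical epithelium, held 1538, 3640 and 12300 CPM in the same order. The other 4 clusters held 13.9 to 146 CPM of Psmb11. All 3 genes were found in 81.8% and 76.3% of the thinned cells of the first 2 clusters, and in 0% to 14.0% of those of the other 4.

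The low clusters of replicate 1 differed in the other markers they held. A cluster of 114 cells led by the complement genes C1qa, C1qb and C1qc held 146 CPM of Psmb11 and 3118 of Ctsl. Its summed myeloid markers were 461 CPM, with 0 of 6 at 0, against 22.9 in the cTEC-like cluster. Its mesenchymal markers were higher still, at 1004 CPM against 121, though 5 of 8 were at 0. Its endothelial markers summed to 135 CPM against 62.2. A cluster of 105 cells with the chemokine gene Ccl21a and the keratinocyte gene Sprr2b among its leading genes held 138 CPM of Psmb11 but 8046 of Ctsl, and its mTEC I markers summed to 21948 CPM against 1643. Of these 2 of 6 were raised, against 4 of 6 mTEC II markers. The cluster met the rule for mTEC II but was left unnamed, with the mTEC I marker Ccl21a among its leading genes. A cluster of 92 cells with Dcn and Krt14 among its leading genes held 100.3 CPM of Psmb11, and its mesenchymal markers summed to 1523 CPM against 121. The last, 40 cells led by Bpifa1, held 13.9 CPM of Psmb11 and had secretory genes such as Wfdc2 and Cxcl17 among its leading genes. Its myeloid markers summed to 1216 CPM, but with 3 of 6 at 0 that sum rests on few genes. Ctsl stood at 1462 CPM or more in all 6 clusters.

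Adult cTEC replicate 2 split in the same way. Psmb11 stood at 3182 CPM, Prss16 at 6668 and Ctsl at 18295 in the cTEC-like cluster (85 cells), and Psmb11 at 1771 to 2187 CPM in 3 further clusters, of which the one with 21 cells was led by T cell genes such as Tcf7, Cd3g and Cd8b1 (thymocyte markers 1411 CPM, 0 of 10 at 0). In those 4 clusters 81.0% to 97.6% of thinned cells had all 3 genes. The other 5 clusters held 106 to 543 CPM of Psmb11, and 3.85% to 34.4% of their cells had all 3. Among them, a cluster of 103 cells led by Ly6c1 and Gas1 had mesenchymal markers at 1315 CPM against 43.7 in the cTEC-like cluster, and a cluster of 27 dividing cells held 271 CPM of Psmb11, 1002 of Prss16 and 3895 of Ctsl. A further cluster of 29 cells met the rule for mTEC II but was left unnamed, and held 219 CPM of Psmb11 and 6194 of Ctsl.

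Over the whole libraries, several marker lists differed between the adult cTEC libraries and NB. The mTEC I markers summed to 6238 and 1384 CPM in the adult cTEC libraries, against 434 in NB cTEC. Myeloid markers summed to 271 and 32.2 CPM against 6.79, and mesenchymal ones to 511 and 318 against 30.7, all highest in replicate 1, where the trio was lower. Thymocyte markers went the other way between the adult libraries, with 46.0 and 101 CPM against 14.5. The cTEC list, which holds none of the 3 genes, summed to 7968, 13321 and 10452 CPM. Their part in the lower values and shares of the adult libraries was not tested.

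**Figure D3:**
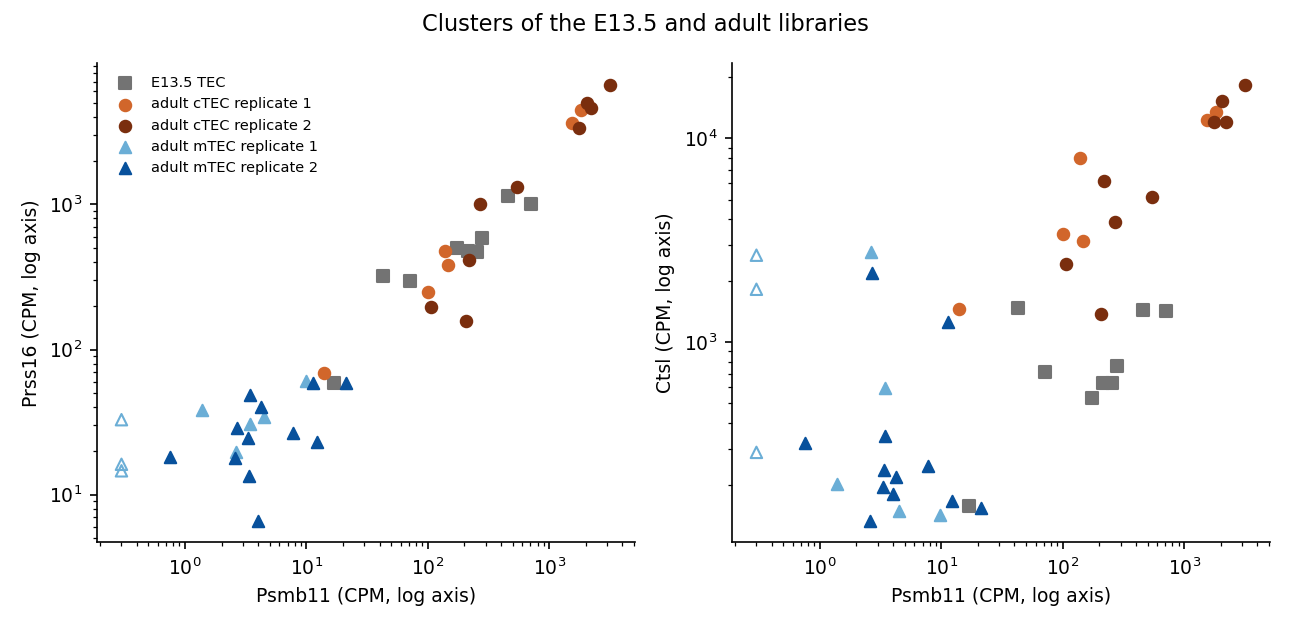
Psmb11 against Prss16 (left) and against Ctsl (right) in the clusters of the E13.5, adult cTEC and adult mTEC libraries (CPM, log axes), 1 point a cluster. Open triangles at the left edge are mTEC clusters in which Psmb11 had 0 UMIs. Adult cTEC clusters form a high group from 1538 to 3182 CPM of Psmb11 and a low group, while Ctsl reaches 2755 CPM in mTEC clusters almost without Psmb11.

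In adult mTEC, Psmb11 reached at most 9.83 CPM in a cluster of replicate 1 and 21.4 CPM in one of replicate 2, and Prss16 from 14.6 to 60.5 CPM and from 6.63 to 58.5. Ctsl instead varied by cluster. It stood at 2669 and 2755 CPM in the mTEC I-like clusters of replicate 1 and at 2186 in that of replicate 2, where 94.8% to 96.1% of thinned cells had it. Unnamed clusters with 3 of 6 mTEC I markers raised followed, at 1817 CPM in replicate 1 and 1258 in replicate 2. In the mTEC II-like cluster of replicate 1, the class that holds Aire, it stood at 148 CPM and in 16.9% of cells. The mTEC III-like and mTEC IV-like clusters of replicate 2 held 236 and 319 CPM. In the clusters with the most Ctsl, Psmb11 had between 0 and 2.66 CPM. Ctsl was itself among the leading genes of 2 of the clusters.

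At E13.5 the trio was already uneven. The cluster led by Ppp1r27, Acaa1b and Ccl25 (251 cells) held 711 CPM of Psmb11, 999 of Prss16 and 1418 of Ctsl, and 47.0% of its cells had all 3. A cluster led by Hoxa7, Ntng1 and Tnc (145 cells) held 461, 1142 and 1432 CPM, with 44.8%. A cluster with mTEC I and mTEC II markers (76 cells, led by Ccl5 and Il4i1) held 42.6 CPM of Psmb11 and 320 of Prss16 but 1474 of Ctsl. The lowest was a cluster of 111 cells led by Dlk1, with 16.8, 59.3 and 157 CPM, against 18.9, 58.3 and 207 CPM in the parathyroid-like cells. The cluster of 76 cells, 4.34% of the epithelial-like cells, thus held as much Ctsl as the 2 clusters with the most Psmb11, within counting error. Its Psmb11 was low but measurable (29.3 to 59.9 CPM). This was not so for a larger cluster of 217 cells, with Krt5 among its leading genes and mTEC I markers at 3311 CPM. It held 71.4 CPM of Psmb11, 297 of Prss16 and 718 (678 to 759) of Ctsl.

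At E17.5 a cluster of 1385 cells, 16.6% of the library, was led by haemoglobin genes. Psmb11 stood at 794 CPM in it and 1603 in the other E17.5 cells, Prss16 at 2361 and 3891, and Ctsl at 6291 and 14590. All 3 genes were below their level in the rest, with 71.8% of its cells holding the 3 together. Leaving the cluster out changed no call on the trend of the 3 genes.

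Proliferation was compared next, since 78.0% of E13.5 cells but 1.83% and 8.6% of adult cTEC scored as cycling (a joint S and G2M phase score above 0). Cells within 0.05 of that limit were 2.64% to 8.6% of a library. Psmb11 in cycling against resting cells stood at 202 and 502 CPM in E13.5, 814 and 1677 in E15.5, 799 and 1613 in E17.5, 700 and 1444 in NB, 66.2 and 677 in adult cTEC replicate 1, and 677 and 1487 in replicate 2. Cycling cells were the lower in 6 of 6 libraries, by 2.02-fold to 2.48-fold outside adult replicate 1, which had only 9 cycling cells and 4 of their UMIs.

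Prss16 and Ctsl behaved likewise. The mean log2 ratio of cycling to resting cells was −1.48 for Psmb11 (SD 0.92, n = 6), −1.31 for Prss16 (SD 0.9996, n = 6) and −0.77 for Ctsl (SD 0.22, n = 6). Cycling cells were lower in 6 of 6 libraries for each gene, and the two-sided exact permutation test by sign flips gave p = 0.03125, the smallest that 6 libraries allow (adjusted 0.03125 over the 3 genes). Without adult cTEC replicate 1 the means were −1.11, −0.90 and −0.74 (exact permutation p = 0.0625, again the smallest possible with 5). Cycling cells had more UMIs, with medians of 7311.5 against 5922 in NB cTEC for example, and CPM is relative to that total. They also lay in other clusters. At E13.5, 27.9% of the Ppp1r27-led cluster scored as cycling, against 100% and 98.6% of those led by Ube2c and Ccne1. In adult cTEC it was 0% of both cTEC-like clusters, but 47.6% of the T cell gene-led cluster of replicate 2, where Psmb11 was high. The part of cluster make-up in these ratios was not tested.

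E13.5 TEC also lay below every cTEC library when resting cells alone were compared. Resting E13.5 cells held 502 CPM of Psmb11, 902 of Prss16 and 1272 of Ctsl, and resting E15.5 cells 1677, 2775 and 5109. The ratio between these 2 ages was 3.34 for Psmb11, 3.08 for Prss16 and 4.02 for Ctsl in resting cells, smaller than the 5.44, 4.46 and 5.59 over all cells. In adult mTEC, Prss16 stood at 39.3 CPM in cycling and 33.2 in resting cells of replicate 1, and at 38.0 and 35.8 in replicate 2, while Ctsl stood at 401 and 994, and at 378 and 538.

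**Figure D4:**
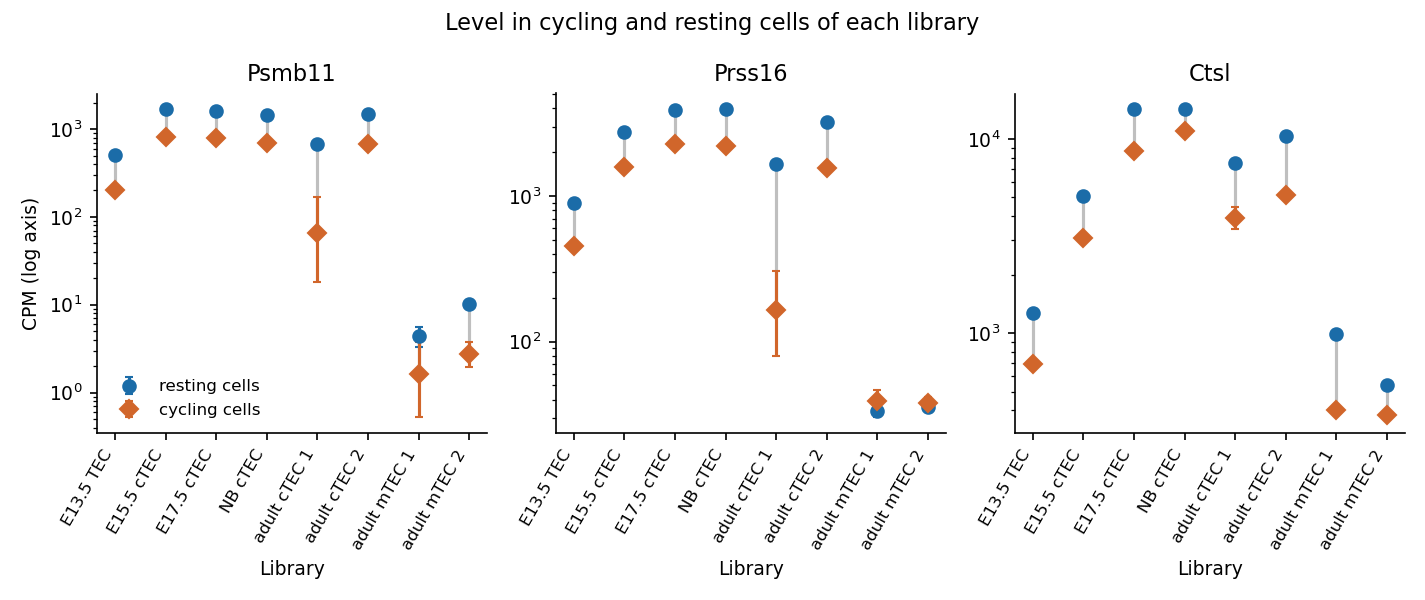
Level of Psmb11, Prss16 and Ctsl (CPM, log axes) in resting (circles) and cycling (diamonds) cells of each library, with 95% Poisson intervals. Cycling cells lie below resting cells in all 6 libraries of E13.5 TEC and cTEC for each gene, and for Prss16 in adult mTEC the 2 classes lie close together, at 39.3 and 33.2 CPM in replicate 1.

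The genes whose levels over the 8 libraries were most like those of the trio were sought among 2982 genes with a mean of at least 50 CPM, by the Pearson correlation of log2(CPM + 10). Prss16 came first for Psmb11 and the reverse (r = 0.996), followed by Syngr1, Dnajc13 and Atpif1 for both, with Dact2 for Psmb11 and Ppp2r4 for Prss16 (r from 0.984 to 0.992). Ctsl had other neighbours: Tinagl1 (r = 0.983), Ndufa11, Lamp2 (a lysosomal membrane protein), 0610037L13Rik and Copz2. It was only place 194 for Psmb11 (r = 0.87) and place 132 for Prss16 (r = 0.91). The 8 libraries share 2 data sets and a wide gap between cTEC and mTEC, so high values are common, and the order depends on the measure. By Spearman's rank Prss16 fell to place 42 for Psmb11 and Psmb11 to place 71 for Prss16, and 1 of the 5 neighbours of Psmb11, 2 of Prss16 and 0 of Ctsl stayed among the first 5. By that measure Prss16 lay closer to Ctsl (rho 0.905) than to Psmb11 (rho 0.857), so the pairing of Psmb11 with Prss16 also depends on it.

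Around the trio, 49 genes of the same pathways were followed, from lists named below. In the age trend 47 were tested. Of these 11 rose, 23.4% against 5.15% of all genes, and 0 fell, against 3.07% of all genes, with a median slope of 0.46 against 0.000264 over all genes. Among the genes with an average above 3 on the log2 CPM scale, the largest rises were those of Ctss, cathepsin S, with a log2 slope of 1.91 (SE 0.28, edgeR adjusted p 0.0167), of Psmb8, the immunoproteasome counterpart of Psmb11, with 1.81 (SE 0.16, adjusted p 0.00465), and of the class I heavy chain H2-D1 with 1.37 (SE 0.13, adjusted p 0.00537). Psmb8 stood at 3.04, 4.44, 7.81 and 67.9 CPM from E13.5 to NB and at 301 and 201 in adult cTEC. Every age before the adult had 1 library, so its spread is not known. Ctss stood at 5.40 CPM in NB cTEC and at 71.6 and 13.6 in adult cTEC, where the myeloid markers stood at 6.79, 271 and 32.2 CPM, and their part in its rise was not tested. These calls were not kept without adult cTEC replicate 1, in a fit with 1 library at each age. Few of all genes passed in that fit, so the loss is no result about these lists. The slope of Psmb8 was 1.80 there, against 1.81.

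By role, the trend called 1 of 6 proteasome catalytic subunits (Psmb8), 4 of 7 class I genes, 2 of the 9 tested genes of the list of other cathepsins and legumain, 2 of 3 cystatins (cysteine protease inhibitors), 0 of 2 S28 peptidases, 1 of 9 class II genes and 1 of 11 cortical regulators and markers, all upwards. The last was Enpep, which encodes Ly51, an antigen used to sort the cTEC but not E13.5 TEC. With 5.15% of all genes rising, nothing is read from the lists with 0 or 1 member called. DESeq2 called many more of the same 47 genes, 27 up and 1 down, among them 7 of 7 class I and 9 of 9 class II genes. It also called more of all 14285 genes, 1642 up and 1296 down, against 736 and 438 in edgeR. Names given here and below beyond these 3 largest in each direction were chosen after their values were seen. The class II gene was H2-Ob, with a slope of 2.45 at a low level. The class I genes were B2m, H2-K1, H2-D1 and Tap2, with slopes from 1.21 to 1.37. B2m stood at 2067 CPM in NB cTEC, 5795 and 4025 in adult cTEC and 10811 and 7564 in adult mTEC, where the mTEC I markers stood at 434, 6238 and 1384, and 8619 and 4263 CPM, and their part in the rise of the class I genes was not tested. The housekeeping subunit Psmb5, which Psmb11 replaces, had a slope of −0.07 (SE 0.12), and Foxn1 one of −0.09 (SE 0.10), neither past the threshold. Psmb9 and Psmb10, the immune subunits that sit beside Psmb11 in the thymoproteasome, did not pass: Psmb10 had 259 CPM in E13.5 TEC, then 1350, 1323 and 1547 CPM in the E15.5, E17.5 and NB libraries, and 680 and 1183 in adult cTEC.

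Between the adult lineages, 14 of the 49 genes (28.6%) were higher and 10 (20.4%) lower in cTEC, against 10.9% and 20.8% of all genes tested, so the lower share was that of all genes. Leaving out any 1 adult library, which leaves 1 library in a group, lowered both counts. It lowered the calls over all genes as well, so the smaller counts are no result about these lists. The cortical list accounted for 10 of the 14, with 10 of 11 higher and a median difference of 3.44, and Foxn1 the exception at 0.89 (SE 0.37, edgeR adjusted p 0.0636). The largest were the chemokine receptor Ackr4 at 6.29 (SE 0.47, edgeR adjusted p 3.08e-13), the chemokine Cxcl12 at 6.18 (SE 0.55, adjusted p 1.24e-11) and the endocytic receptor Ly75 at 4.93 (SE 0.45, adjusted p 1.92e-11). Psmb11 had a larger difference than any of these, though the distances were not tested. Several of these genes also served to name the cells, and Enpep, among the 10, encodes Ly51, by which cTEC and mTEC were sorted, so its call was set by the gate. Fewer of the 11 were called without adult mTEC replicate 2, as were fewer of all genes.

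Of the 11 genes in the list of other cathepsins and legumain, 6 were lower in cTEC, 54.5% against 20.8% of all genes, and 1 was higher, 9.09% against 10.9% of all genes. The median difference was −2.12 against −0.14 over all genes. The difference was −3.43 on the log2 scale for Ctsh (SE 0.44, edgeR adjusted p 5.72e-08), −3.04 for Ctsz (SE 0.45, adjusted p 9.83e-07) and −2.67 for Ctss (SE 0.46, adjusted p 1.26e-05), the last a cysteine protease that trims the invariant chain in other antigen presenting cells. Ctss stood at 71.6 and 13.6 CPM in adult cTEC and at 197 and 190 in adult mTEC. The myeloid markers were lower in cTEC too, at 271 and 32.2 CPM against 440 and 557, and their part in these differences was not tested. Ctse and Ctsk had 0 UMIs in both adult cTEC libraries and at most 10.1 CPM in mTEC, so that they were at least 4.89-fold and 10.6-fold lower by a floor of 3 UMIs over both libraries. Both are among the 6, but they passed the filter on low counts only through mTEC. No other direction was open to them, and their calls add nothing to the share. With these bounds in place of the fitted values the median stayed at −2.12. The 1 that was higher in cTEC was Ctsd, by 0.96 (SE 0.37, edgeR adjusted p 0.0452), a call lost under DESeq2 (adjusted p 0.0730), without the filter, without the data set term and without any 1 adult library other than cTEC replicate 2. Without adult mTEC replicate 2 fewer of the 11 were called, and Ctss and Ctsz no longer were. That fit had 1 mTEC library and also called fewer of all genes.

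Among the partners of Psmb11, 1 of 6 catalytic subunits was higher in cTEC: Psmb9 by 1.84 (SE 0.42, edgeR adjusted p 5.79e-04). The call of Psmb9 was lost without adult cTEC replicate 2 (1.53, edgeR adjusted p 0.0601), without adult mTEC replicate 1 (2.07, edgeR adjusted p 0.0635) and without adult mTEC replicate 2 (1.55, edgeR adjusted p 0.209). Psmb5 (−0.07, SE 0.39), Psmb8 (−0.61, SE 0.39) and Psmb10 (0.53, SE 0.41) were not called. Of 7 class I genes only the peptide transporter subunit Tap2 was higher, by 1.37 (SE 0.40, edgeR adjusted p 0.00754), a call lost with no data set term (edgeR adjusted p 0.204), without either adult cTEC replicate (0.403 and 0.288) and without adult mTEC replicate 2 (0.677). Prcp, a relative of Prss16 in the S28 family, was lower, with a difference of −1.22 (SE 0.40, edgeR adjusted p 0.0166), a call lost under DESeq2 (adjusted p 0.0533), without adult cTEC replicate 1 (0.0584) and without either adult mTEC replicate (0.115 and 0.192), and Dpp7 was not called. The inhibitor Cstb was higher, with a difference of 2.34, and Cst6 lower, with one of −1.62. The call of Cstb was lost without either adult mTEC replicate, and that of Cst6 with no data set term and without any 1 adult library other than mTEC replicate 1. Of 9 class II genes H2-Oa and H2-Ob, the chains of H2-O, were the 2 called, both lower in cTEC. The call of H2-Oa was lost without adult cTEC replicate 2 (edgeR adjusted p 0.0580) and without adult mTEC replicate 2 (0.154). In these lists 16.7% of the proteasome subunits and 14.3% of the class I genes were higher, against 10.9% of all genes, and 22.2% of the class II genes were lower, against 20.8% of all genes, so that these counts lie near those of all genes and are no result about the members. DESeq2 called 1 of the 9 class II genes higher and 4 lower, against 944 higher and 1630 lower of all 15626 genes. The lower share of the class II genes was thus above that of all genes under DESeq2, whereas in edgeR it was near it.

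**Figure D5:**
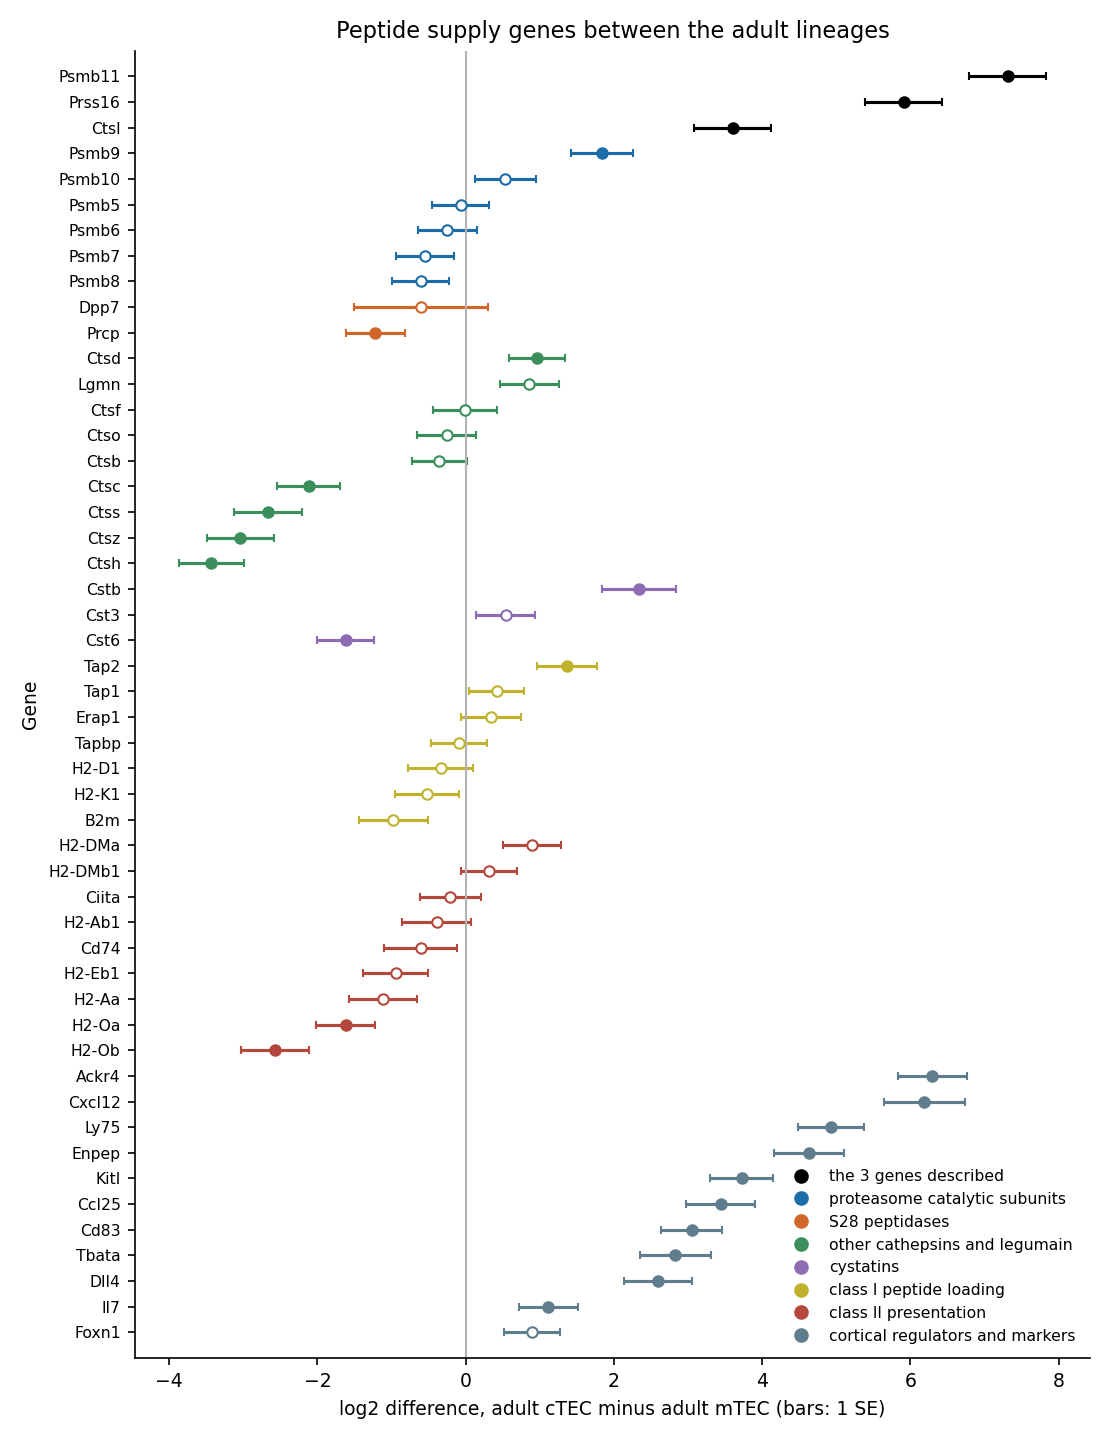
Difference between adult cTEC and adult mTEC (log2, bars 1 SE) for the 3 genes and 47 of the 49 pathway genes, grouped by role; filled points had an edgeR adjusted p under 0.05. Psmb11, Prss16 and Ctsl lie with the cortical markers to the right, at 7.31, 5.91 and 3.60, while Ctsh, Ctsz and Ctss lie to the left. Ctse and Ctsk, at 0 UMIs in both cTEC libraries, are not drawn.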

How the data were processed

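Single-cell RNA of the 8 libraries was captured with droplet beads that tag 1 end of each transcript, and the deposited files hold raw UMI counts per gene and cell. Per the labels and the file headers, the authors made them with Cell Ranger (the submitters' processing notes name 2.0.1, and the headers of the second data set 3.0.1) and STAR 2.5.1b on build mm10. Cells above 5% mitochondrial UMIs or 5000 genes were removed, which left 25750 of 28334. No doublet caller was run. Cells were clustered with scanpy 1.11.5 and Leiden at resolution 0.8 (20 components, 20 neighbours, 2000 variable genes, without the 3 genes), and a cluster was named where at least 3 and over 50% of a list's markers were 4-fold higher (2-fold for subsets, pseudocount 10 CPM). A subset cluster that met the rule stayed unnamed where its 10 leading genes held more markers of another list, and was called mixed where more than 1 list met it.

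Counts were summed per library and tested in edgeR 4.0.16 (quasi-likelihood, TMM, filterByExpr; R 4.3.3) with data set as a term and Benjamini-Hochberg adjustment over all genes, at 0.05. The scripts were tested on simulated data. Shares used cells thinned to 2000 UMIs. Cell cycle differences were tested by exact sign flips over the 6 libraries of E13.5 TEC and cTEC. DESeq2 1.42.0, other scalings, filters, cell sets and left-out libraries were alternatives. Intervals cover counting error only, and depth is given in the report.

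Named genes were the 3 members, the 3 pathway genes with the largest called rise and fall in each fit (average log2 CPM above 3), and the 5 genes most like each member. The members and lists were chosen with earlier results of these data known.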

Additional observations from a re-analysis of the deposited data

Results flagged for a closer look

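In adult cTEC, Prss16 was lower in cycling than in resting cells, with log2 ratios of −3.34 and −1.06, while in adult mTEC the ratios were 0.24 and 0.09. The difference of the means was 2.36, and both libraries of each group lay on the side named. It was not tested, and the first cTEC library had 9 cycling cells. In mTEC replicate 2 the intervals of cycling (34.9 to 41.4 CPM) and resting cells (34.2 to 37.5 CPM) overlapped. When an S or a G2M score above 0 counted as cycling, its ratio was −0.025, on the other side.

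UMIs of the 3 genes were also found in cells set aside from the comparisons, with values above the limit that a count of 0 allows. Whether they come from these cells or from free RNA was not tested. In the parathyroid-like cells of E13.5 TEC, Psmb11 stood at 18.9 CPM (95% interval 9.41 to 33.7), Prss16 at 58.3 and Ctsl at 207, against a limit of 5.14 CPM. In the thyroid-like cells, Psmb11 stood at 5.88 CPM (1.60 to 15.1), Prss16 at 26.5 and Ctsl at 232, against a limit of 4.41 CPM, which lies inside the interval of Psmb11. In the 169 thymocyte-like cells of NB cTEC the values were 1660 CPM for Psmb11, 4340 for Prss16 and 14810 for Ctsl, against a limit of 1.95 CPM, and thus above the 1340, 3704 and 13773 CPM of the epithelial-like cells of that library. These cells had a median of 8627 UMIs against 6013.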

How the results depend on the processing

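No paired analysis by replicate number was possible because the labels carry none, and adult libraries were matched by data set and cycling and resting cells by library. Without E13.5 TEC the age slopes turned to −0.24 for Psmb11 and −0.12 for Prss16, and the cycling means were −1.52, −1.37 and −0.75 for Psmb11, Prss16 and Ctsl (exact permutation p = 0.0625, the smallest for 5 libraries). DESeq2 called 1642 rising and 1296 falling genes against 736 and 438, and 944 higher and 1630 lower in cTEC against 1708 and 3246; the cause was not tested. Leaving out 1 adult library gave 21 to 340 rising and 3 to 161 falling genes (lowest without adult cTEC replicate 1), and 234 to 959 higher and 786 to 2051 lower in cTEC, with fewer samples in the fit. The lineage fits with a library left out also had no data set term. The lineage difference of Ctsl then ranged from 3.23 to 3.92 and was not called without adult mTEC replicate 2, while Psmb11 (6.51 to 8.02) and Prss16 (5.34 to 6.44) stayed called. The cycling means ranged from −1.55 to −1.11, −1.36 to −0.90 and −0.74 to −0.73. Under RLE scaling, no filter and both other cell sets, the 3 genes kept direction and call in both fits. Shares moved with the thinning depth, 19 of 24 at 1000 UMIs.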
